A study of Rattus norvegicus with 15 samples.

Results

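Aqp3, which encodes a channel for water and glycerol in the membranes of epithelial cells, was examined in developing rat molars together with 8 genes of epithelial keratins and cell adhesion: Krt5, Krt14, Krt8, Krt18, Cdh1, Cdh3, Epcam and Perp. The authors' table names genes by mouse Ensembl identifiers, which are ENSMUSG00000028435 for Aqp3, ENSMUSG00000061527 for Krt5, ENSMUSG00000045545 for Krt14, ENSMUSG00000049382 for Krt8, ENSMUSG00000023043 for Krt18, ENSMUSG00000000303 for Cdh1, ENSMUSG00000061048 for Cdh3, ENSMUSG00000045394 for Epcam and ENSMUSG00000019851 for Perp. All 9 had a row among the 14185 genes of the table that covers every library. Aqp3 was selected on its measured rise in level from E15 to E17, and the other 8 were taken because they are general genes of epithelium, so that the rise of Aqp3 could be set beside them. The values from E15 to E17 that led to this choice are therefore given as a description, without a test. The change from E17 to E18 was tested, although the E17 libraries took part in choosing Aqp3.

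Each library was made from 1 molar tooth germ of a wild type DA/HanRj rat embryo, and none carried a transgene, mutation or treatment. There were 5 libraries at each of 3 stages, which the labels give as E15.5 (here E15), E17.5 (here E17) and E18, where E15 and E17 represent the bud and the cap stage of the molar. The E18 germs are labelled as lower first molars stored in RNAlater. The paper also reports RNAlater for its RNAseq germs, and the titles of all stages carry M1. The libraries of each stage carry a title code of their own, so that stage and preparation cannot be told apart. E17 replicates 1 and 2 were the left and the right tooth of 1 embryo, and all other teeth came from different embryos. Library totals ranged from 10993502 to 27571541 estimated counts. E18 replicate 3 stood apart from its stage, as its correlation with libraries of the same stage averaged 0.911, against 0.961 to 0.964 for the other 4. E15 replicate 3 also differed from its stage, with a chi-square per gene of 45.5 to 67.5 against each other E15 library, where the other E15 pairs had 7.03 to 12.4, and it had the lowest correlation at E15 (0.955).

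The tooth germ is an epithelium that buds and folds into a mesenchyme, and both tissues were sequenced together. In stratified epithelia Krt5 and Krt14 pair into the keratin filaments of the basal layer, whereas Krt8 and Krt18 pair into the filaments of simple and embryonic epithelia. E-cadherin (Cdh1) and P-cadherin (Cdh3) join epithelial cells through adherens junctions, Epcam is an adhesion protein of epithelial surfaces, and Perp, a target of p63, is a component of desmosomes. To ask whether the rise of Aqp3 went with the general share of epithelium in the germ, its ratio to these genes was followed through the stages.

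The start regions of 6 of the 9 genes were found in the RefSeq promoter table of the rat build GRCr8, and 4 of them are shown because they carry the contrast described here, between Aqp3 and the basal keratin Krt5, which kept rising to E18, and the simple keratins Krt8 and Krt18, which did not pass the test there. Each line gives the 250 bases before the annotated start, read towards the gene. Capitals mark matches on either strand to 4 short motifs. The TATA box was searched as TATAAA. The GC box was searched as GGGCGG. The E-box was searched as CACCTG. The AP-1 site was searched as TGANTCA, where N is any base.
Aqp3, chr5:61040684-61040933, minus strand: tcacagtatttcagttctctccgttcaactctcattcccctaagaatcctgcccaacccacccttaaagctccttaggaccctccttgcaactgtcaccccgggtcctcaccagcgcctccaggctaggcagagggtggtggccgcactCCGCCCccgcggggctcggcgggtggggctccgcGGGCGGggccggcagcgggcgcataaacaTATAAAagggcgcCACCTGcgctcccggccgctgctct
Krt5, chr7:134730570-134730819, minus strand: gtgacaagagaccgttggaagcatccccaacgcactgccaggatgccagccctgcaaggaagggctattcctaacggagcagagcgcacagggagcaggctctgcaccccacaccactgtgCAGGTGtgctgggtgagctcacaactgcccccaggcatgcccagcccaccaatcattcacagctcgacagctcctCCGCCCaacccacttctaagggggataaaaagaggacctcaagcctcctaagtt
Krt8, chr7:135010340-135010589, minus strand: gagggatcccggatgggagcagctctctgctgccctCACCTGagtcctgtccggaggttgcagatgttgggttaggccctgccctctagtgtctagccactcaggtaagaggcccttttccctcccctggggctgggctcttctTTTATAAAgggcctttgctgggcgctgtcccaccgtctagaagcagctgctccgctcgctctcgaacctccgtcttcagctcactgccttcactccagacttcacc
Krt18, chr7:135035918-135036167, plus strand: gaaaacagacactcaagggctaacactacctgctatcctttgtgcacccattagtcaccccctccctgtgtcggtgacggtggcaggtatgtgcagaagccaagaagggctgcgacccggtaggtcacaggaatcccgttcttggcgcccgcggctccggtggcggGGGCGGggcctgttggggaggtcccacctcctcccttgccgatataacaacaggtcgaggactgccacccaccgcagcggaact
The Aqp3 window held 1 TATAAA match, 38 to 33 bases before the start, 2 GC boxes and 1 E-box. The Krt5 window held 1 GC box and 1 E-box and no TATAAA match, the Krt8 window held 2 overlapping TATAAA matches on opposite strands and 1 E-box, and the Krt18 window held 1 GC box alone. Epcam and Perp, which are not shown, were the 2 genes with an AP-1 match. Of the 6 windows, 5 held an E-box and 5 a GC box, and 2 each held a TATA box and an AP-1 site, whereas the shares among 33469 RefSeq windows of the same length were 15.9% for the E-box, 30.5% for the GC box, 12.9% for the TATA box and 6.34% for the AP-1 site. A match is a description of the letters and does not show that a factor binds there. In the order of genes on the RefSeq chromosomes, Krt8 and Krt18 were next to each other, as were Cdh1 and Cdh3, and the neighbour of Aqp3 was another aquaporin gene, Aqp7.

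Aqp3 was low at E15 and rose at each later stage. Its level, as the count divided by the library's size factor (normalized count), was 64.5, 58.2, 47, 13.5 and 21.3 in E15 replicates 1 to 5, which rest on 119, 53, 40, 13 and 19 reads as estimated by salmon. It was 365, 298.8, 261.2, 337.2 and 308.2 in the E17 replicates. It was 588.3, 805.5, 989.6, 458.5 and 589.4 in the E18 replicates. No library of one stage overlapped with the next, and E15 was the stage with the widest spread relative to its mean, with replicates 4 and 5 below the other 3. The stage means were 40.9 ± 22.5 (SD, n = 5) at E15, 314 ± 39.3 at E17 and 686 ± 210 at E18. In bulk tissue, fewer cells of a type and less RNA per cell cannot be told apart, and this holds for every level given here.

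From E15 to E17 the fitted log2 fold change of Aqp3 was 2.91 ± 0.31 (SE), a 7.50-fold rise that placed it above 99.7% of the 12627 genes tested. From E17 to E18 it rose further by 1.13 ± 0.19 on the log2 scale, or 2.18-fold (adjusted p = 0.0133, edgeR quasi-likelihood F test). Without E18 replicate 3, which had the highest Aqp3 level, the later change was 0.95 and remained past the threshold (adjusted p = 0.00167). It also passed with the teeth of the shared E17 embryo summed, but closer to the threshold (adjusted p = 0.0328). The adjusted p was 0.0467 in a fit of all 15 libraries and 0.0478 without E17 replicate 3, each with edgeR. Over both steps, from E15 to E18, the fitted value was 4.05 ± 0.40. The 2 steps share the E17 libraries and are thus not independent of each other.

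**Figure D1:**
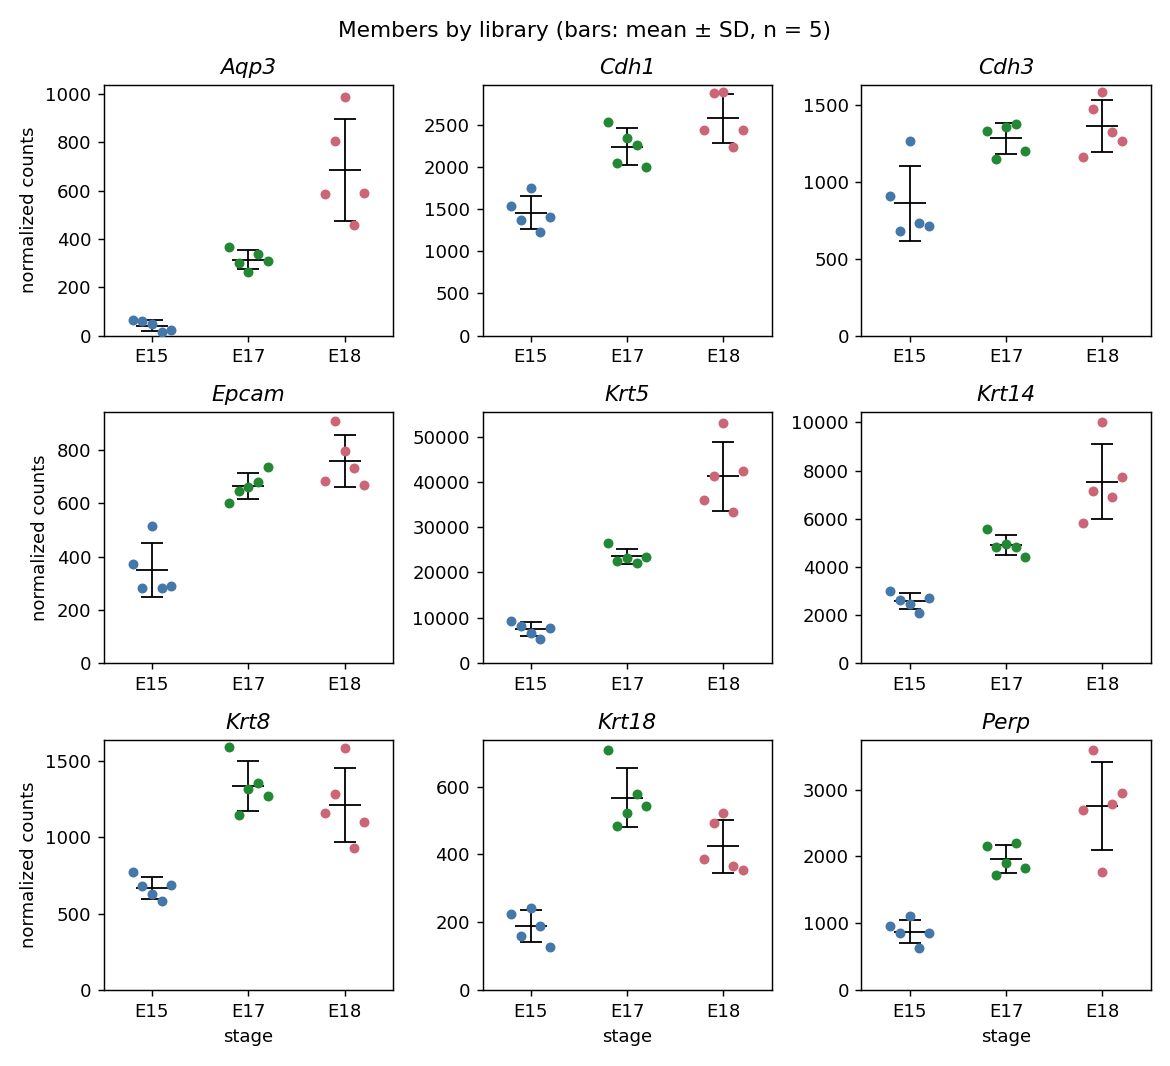
Normalized counts (estimated counts divided by the size factor, linear axes from 0) of the 9 genes in each library by stage; each point is 1 tooth, and lines show the mean ± SD of 5 libraries. The stages are separate for Aqp3, Krt5 and Krt14, whereas Krt8 and Krt18 are higher at E17 than at E15 and overlap between E17 and E18.

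All 8 accompanying genes were also higher at E17 than at E15, by 0.59 to 1.67 on the log2 scale. Together with Aqp3, 9 of 9 genes passed the threshold in this comparison, where 11.3% of all genes tested were called higher. Because this contrast took part in the choice of genes, nothing is read from that count. The median change was 0.999 over the 9 genes and 0.973 without Aqp3, beside -0.00871 over all genes tested. The stages did not overlap in 8 of the 9 genes, beside 9.23% of all genes without overlap in that direction, and the exception was Cdh3, whose E15 replicate 3 lay above 2 of the E17 libraries, whereas the other 4 E15 libraries lay below all of E17. Without E15 replicate 3 the fitted change of Cdh3 was 0.76, and 9 of 9 genes still passed, beside 13.5% of all genes called higher.

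From E17 to E18 a part of the genes passed the test. Of the 9 genes, edgeR called 3 higher, Aqp3, Krt5 and Krt14, and 0 lower, beside 1.91% of all genes called higher and 0.629% called lower among 12718 tested. DESeq2 called the same 3 higher and 0 lower, beside 445 genes called higher and 190 called lower among the 12718. At an unadjusted p under 0.05, 4 were higher and 1 lower, beside 15.9% of all genes in either direction. The same 3 genes were those without overlap between the stages, beside 4.18% of all genes without overlap in that direction. The members' median was 0.203, compared with -0.015 for all genes. Without E18 replicate 3 the number called higher was 4, with Perp added, and Krt18 was called lower, beside 3.61% and 1.95% of all genes. It was 2 when any 1 of 8 other libraries was left out, beside 0.906% to 1.27% of all genes called higher. It was also 2 when both teeth of the shared E17 embryo were joined, where 212 genes were called in either direction. In each of these fits Krt14 was lost.

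**Figure D2:**
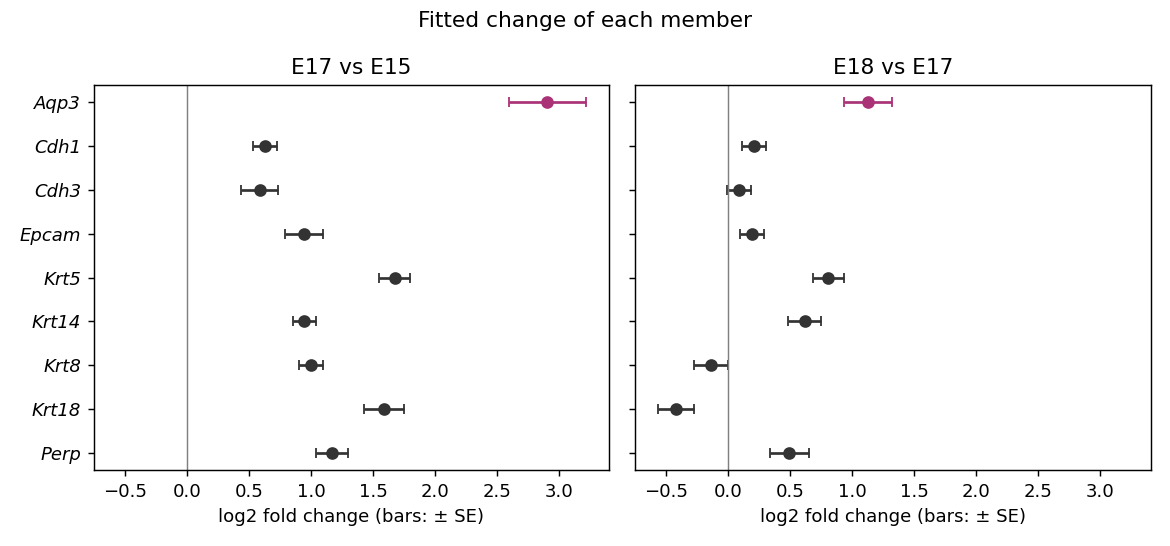
Fitted log2 fold changes (points, with bars of ± SE) of the 9 genes from E15 to E17 on the left and from E17 to E18 on the right, 5 libraries per stage. All points lie above 0 on the left with Aqp3 at 2.91, and on the right they range from -0.42 for Krt18 to 1.13 for Aqp3.

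Beside Aqp3, the genes called higher at the second step were the basal keratins. Krt5 had 9257.8, 8249.4, 6675, 5271.1 and 7732.3 normalized counts in the E15 replicates. At E17 it had 26475.9, 22628.7, 23290.5, 22153.8 and 23431.4. At E18 it had 36050.1, 41361.2, 53043.6, 33404.7 and 42455.8, and the 3 stages did not overlap. The log2 fold change of Krt5 was 1.67 ± 0.12 from E15 to E17 and 0.81 ± 0.12 from E17 to E18 (adjusted p = 0.00672, edgeR), and it remained past the threshold in each alternative tried. Krt5 was already above 98.7% of the genes in level at E15 and above 99.9% at E18, on a scale of counts that is not corrected for gene length.

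Krt14 is the partner of Krt5 in the filament. Its level was 2994.4, 2595.8, 2459.5, 2061.7 and 2715.8 in the E15 replicates, and 5569.7, 4839, 4964.1, 4799.8 and 4402.2 in the E17 replicates. In the E18 replicates it was 5806.2, 7168.4, 10023.6, 6902 and 7741.1, so that E18 replicate 1 lay just above the highest E17 library and replicate 3 far above the others. The fitted value was 0.95 ± 0.09 at the first step and 0.62 ± 0.13 at the second (adjusted p = 0.0363, edgeR). The second call was lost when any 1 of the 10 libraries other than E18 replicates 1 and 3 was left out (adjusted p from 0.0535 to 0.0982), and the value then ranged from 0.58 to 0.66. It was also lost when E17 replicates 1 and 2, the teeth of 1 embryo, were summed to 1 replicate (adjusted p = 0.0639), and with upper quartile scaling (adjusted p = 0.0503).

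The ratio of Krt5 to its partner was not constant. The difference of the log2 levels of Krt5 and Krt14 was 1.52 ± 0.13 (SD, n = 5) at E15, 2.26 ± 0.08 at E17 and 2.46 ± 0.13 at E18. The E15 libraries were all below those of E17, whereas E17 and E18 overlapped.

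The simple keratins were higher at E17 than at E15 and did not pass the test from E17 to E18. Krt8 had 776.6, 683.8, 627.2, 584.8 and 685.7 normalized counts at E15, and 1589.9, 1148.6, 1316.9, 1354.1 and 1269.3 at E17. At E18 its values were 1160.6, 1283.6, 1586.6, 934.1 and 1100.8, which overlapped with those of E17 and lay above those of E15. Its log2 fold change was 1.00 ± 0.09 from E15 to E17, and -0.14 ± 0.14 from E17 to E18 (adjusted p = 0.64, edgeR), which did not pass the threshold.

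Krt18, the partner of Krt8, had a larger fitted first step. The E15 replicates had 224.4, 160.2, 242, 190.4 and 127.5 normalized counts, and the E17 replicates 709.2, 483.2, 523.3, 577.3 and 543.5. The E18 replicates had 386.7, 492.8, 521, 365 and 354.3, where 3 of the 5 libraries lay below every E17 library. The fitted change was 1.59 ± 0.16 and then -0.42 ± 0.14 (adjusted p = 0.178, edgeR). Without E18 replicate 3 the second value was -0.51 ± 0.12 and was called (adjusted p = 0.0253).

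The balance of both keratin pairs was compared in each library. The mean log2 level of Krt5 and Krt14 exceeded that of Krt8 and Krt18 by 3.62 ± 0.28 at E15 and by 3.63 ± 0.12 at E17, where both pairs were higher than at E15. At E18 the excess was 4.62 ± 0.18. The E17 libraries ranged from 3.51 to 3.81 and the E18 libraries from 4.43 to 4.86, so that each E18 germ had a higher ratio of basal to simple keratin transcripts than any germ of E15 or E17. The difference of 0.98 between E18 and E17 corresponds to a 1.98-fold ratio, and it is given without a test because it is a score over the chosen genes.

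**Figure D3:**
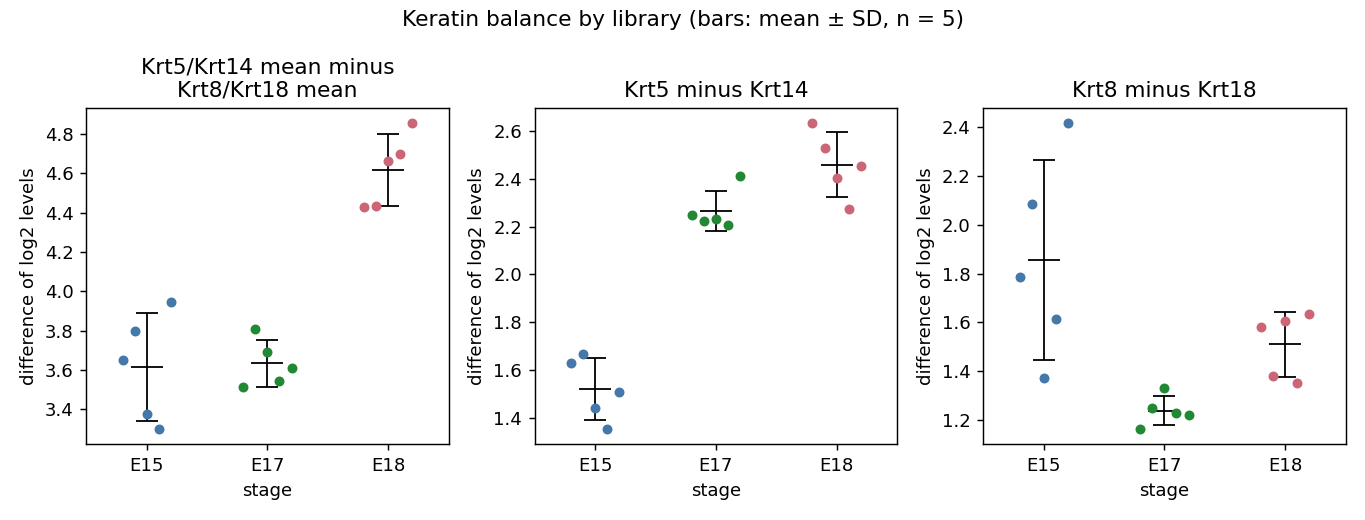
Differences between log2(normalized count + 1) levels in each library by stage, for the mean of Krt5 and Krt14 minus the mean of Krt8 and Krt18 (left), Krt5 minus Krt14 (middle) and Krt8 minus Krt18 (right); lines are the mean ± SD of 5 libraries, and the vertical axes do not start at 0. The E18 libraries lie apart from both other stages on the left (4.43 to 4.86), whereas in the middle E15 is the separate stage.

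Of the adhesion genes, Perp had the largest fitted changes. This desmosomal component had 956, 849.5, 1102.9, 625.1 and 850.1 normalized counts at E15 and 2160.3, 1719, 1900.1, 2199.3 and 1822.7 at E17. At E18 it had 2697.2, 3598.3, 1765.1, 2780.3 and 2945.7. The low value at E18 belongs to replicate 3, the library that was highest of its stage in Aqp3 and in all 4 keratins, and the other 4 E18 libraries lay above each E17 library. The fitted changes of Perp were 1.17 ± 0.13 and 0.49 ± 0.16 (adjusted p = 0.154, edgeR), and without E18 replicate 3 the second was 0.61 ± 0.09 and passed the test (adjusted p = 0.002).

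The cadherins and Epcam were higher at E17 than at E15 and were not called at the second step. Cdh1 ranged from 1227.5 to 1744.2 normalized counts at E15, from 2002.8 to 2533 at E17 and from 2237.3 to 2887.5 at E18. Cdh3 ranged from 683.8 to 1269.7, from 1150.9 to 1379.7 and from 1160.6 to 1583.2, and Epcam ranged from 280.5 to 515.6, from 602.1 to 735.7 and from 669.7 to 909.7. E15 replicate 3 was the highest E15 library in all 3 of these genes and also in Perp and Krt18, but not in the keratins Krt5, Krt14 and Krt8. Their first step was 0.63 ± 0.09 for Cdh1, 0.59 ± 0.15 for Cdh3 and 0.94 ± 0.15 for Epcam. The second step was 0.20 ± 0.10 (adjusted p = 0.343), 0.09 ± 0.10 (adjusted p = 0.676) and 0.19 ± 0.10 (adjusted p = 0.392), respectively, and none passed the threshold of edgeR. The log2 difference between both cadherins was similar in all stages, with 0.79 ± 0.22 at E15, 0.80 ± 0.09 at E17 and 0.92 ± 0.12 at E18.

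The level of Aqp3 was then set against these genes. The mean log2 level of the other 8 genes was 9.93 ± 0.21 (SD, n = 5) at E15, 11.01 ± 0.10 at E17 and 11.22 ± 0.16 at E18. That of Aqp3 was 5.17 ± 0.95, 8.29 ± 0.18 and 9.37 ± 0.43. Aqp3 minus the mean of the other 8 was -4.09, -3.96, -4.59, -5.82 and -5.35 in E15 replicates 1 to 5, and -2.64, -2.65, -2.97, -2.64 and -2.67 in those of E17. In E18 replicates 1 to 5 it was -1.88, -1.73, -1.45, -2.23 and -1.96. The stages did not overlap, and the difference of the means was 2.05 from E15 to E17, a 4.13-fold rise of the ratio, and 0.86 from E17 to E18, a 1.82-fold rise. From E15 to E17 the mean log2 level of Aqp3 increased by 3.12, and that of the 8 genes by 1.08. At the later step these values were 1.08 and 0.22, respectively.

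The result depended on which genes served as the gauge. Against Krt5 and Krt14 alone, Aqp3 rose by 1.81 from E15 to E17 and by 0.39 from E17 to E18, and at the second step the libraries overlapped, with -5.36 to -4.93 at E17 and -5.05 to -4.42 at E18. Against the 4 adhesion genes, the values were 2.28 and 0.85, and the stages did not overlap. A separate gauge was formed by 5 genes, not among the 9, from lists of epithelial genes: Trp63, Lama3, Dst, Tjp1 and Tjp3. Whether they were limited to epithelium was not measured, so their mean is no direct measure of its share. Tjp3 had as few as 21 reads, in E15 replicate 3. The mean log2 level of the 5 genes increased by 0.51 and then by 0.042, and Aqp3 minus this mean by 2.61 and 1.04. With the median of the 5 genes in place of their mean, the second of these values was 0.54. With the mean but without E18 replicate 3, that value was 0.81. These ratios were computed on 1 set of libraries and carry no test.

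**Figure D4:**
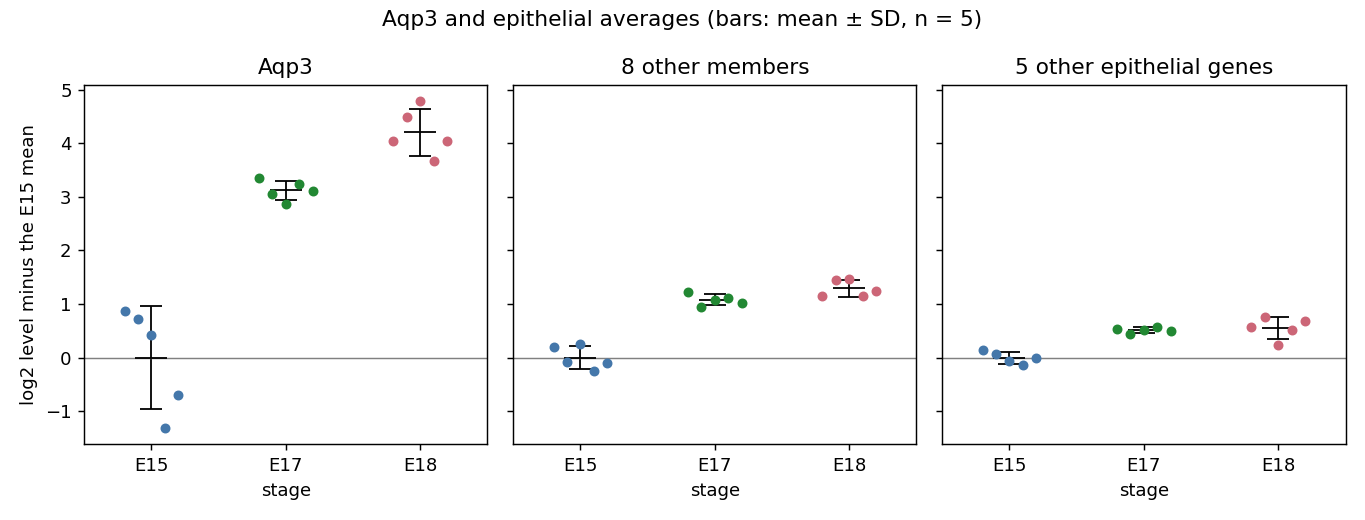
Log2(normalized count + 1) of Aqp3 (left), the mean over the 8 other genes (middle) and the mean over 5 further epithelial genes (right), each minus its own E15 mean, by stage; points are single teeth, and lines show the mean ± SD of 5 libraries on a shared axis. The Aqp3 means rise to 3.12 at E17 and 4.21 at E18, compared with 1.08 and 1.29 for the 8 genes and 0.51 and 0.55 for the 5.

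The 5 further epithelial genes did not move as a block. From E15 to E17, 3 of 5 were called higher, beside 11.3% of all genes (median 0.322): Lama3, a laminin chain of the epithelial basement membrane (1.28 ± 0.12), Dst, a linker of hemidesmosomes to keratin filaments (0.32 ± 0.06), and Trp63, which encodes p63, a regulator of stratified epithelia (0.51 ± 0.12). From E17 to E18, 1 of 5 was called higher, beside 1.91% of all genes, Trp63 with 0.61 ± 0.10 (adjusted p = 0.0109, edgeR), and it was called without each library in turn. The median at this step was 0.0566. The tight junction genes Tjp1 and Tjp3 passed at neither step, with 0.03 and 0.30 at the first and -0.19 and -0.24 at the second. Of the 3 adherens junction genes measured beside the cadherins, Nectin1 was called higher by edgeR at both steps (0.82 ± 0.07 and 0.62 ± 0.11), although the second call was lost without E17 replicate 2 or without E18 replicate 5. The other 2, Ctnnb1 and Ctnna1, were called at neither step by edgeR with all libraries. From E15 to E17 DESeq2 called Ctnnb1 higher, and edgeR called all 3 higher without E15 replicate 3.

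The tissue on the other side was measured by 9 mesenchymal genes. Their mean log2 level was 12.34 ± 0.05 at E15, 12.36 ± 0.05 at E17 and 12.26 ± 0.07 at E18. Within this list 3 were called higher and 4 lower from E15 to E17, beside 11.3% and 7.02% of all genes, with Col1a1 at 1.19 ± 0.24 and Lhx8 at -0.67 ± 0.06. From E17 to E18, 0 of 9 passed with edgeR, beside 1.91% of all genes called higher and 0.629% called lower. A count of 0 among 9 genes is near these shares, and nothing is read from it. At that step 2 of 9 were lower at an unadjusted p under 0.05, beside 15.9% of all genes in either direction. DESeq2 called 1 lower (Pdgfra), beside 190 of 12718 genes, and without E18 replicate 3 edgeR called 2 lower, beside 1.95% of all genes. The mean of the 8 epithelial members minus that of the mesenchymal genes rose from -2.41 ± 0.22 to -1.36 ± 0.14 and then to -1.03 ± 0.19. Its part in the rise of Aqp3 was not tested.

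Among the 352 genes with a symbol and a mean of at least 10 normalized counts, the pattern over the 15 libraries most like that of Aqp3 was that of Sp6, a transcription factor of dental epithelium, with a root mean square difference of 0.81 between centred log2 levels. It was followed by Krt5 (0.86), Inhbb (0.90), Foxi3 (0.95), Thy1 (0.98) and Cdkn1a (1.08). Sp6 had 29.8 ± 6.65 normalized counts at E15, 543 ± 44.8 at E17 and 1131 ± 265 at E18. The median difference over all 12780 genes compared was 1.9, and 34 genes were at or under the value of Sp6, of which the others have no symbol here. This is a description over libraries that share their stages.

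The side of the jaw made no detectable difference to the 9 genes. With stage in the model, the log2 fold change of right teeth (6) against left teeth (9) was between -0.14 for Krt8 and 0.05 for Epcam, and each had an adjusted p of 1 with edgeR. No gene was called among 13246 (0%), 127 had an unadjusted p under 0.05 (0.959%), and DESeq2 called 0 as well.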

How the data were processed

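RNA of 15 molar germs was sequenced, 5 per stage. The paper, which covers the rat germs of E15 and E17 but not those of E18, reports read filtering with FastQC, AfterQC and Trimmomatic. The deposited estimated counts are whole numbers under mouse Ensembl identifiers. They come from salmon (0.99.0 in the submitters' processing notes, which do not say for which libraries). A second deposited table of counts, made by the authors with STAR (Rnor_6.0) and HTSeq, covers E15 and E17 and served only for an alternative count of changed genes, since its rat identifiers were not joined to symbols here. Neither is corrected for gene length. How the mouse identifiers were assigned, the transcript set and the use of strand are not given in the sources used here. Reads of keratin paralogs could be split between genes.

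Members and lists were chosen with earlier results of these data known. Stages were compared in edgeR 4.0.16 under R 4.3.3 by quasi-likelihood, with libraries scaled by TMM and genes filtered with filterByExpr. P-values were adjusted over all genes by Benjamini-Hochberg (threshold 0.05); all 9 members passed the filter. Normalized counts are counts divided by DESeq2 1.42.0 size factors, and scores are means of log2(normalized count + 1). Symbols came from 396 of the study's pairs of symbol and identifier, a few genes being not reported here and left out of the lists, and lists with no joined gene (other keratins, desmosome, epithelial surface, endothelium, blood, immune, muscle, cartilage and nerve) were not analysed here. Named genes are the 9 members, up to 3 called genes of each list with the largest change, and the 6 most like Aqp3. Other list genes that are named were added after their values were seen. Replicates were compared by chi-square per gene (6.34 to 161 over 30 pairs within stages, 9.60 for the teeth of 1 embryo), and no 2 libraries agreed within sampling noise. In simulated E18 and E17 data, 71.7% of 99 genes changed by 1 on the log2 scale and 96% of 100 changed by 2 were recovered. Alternatives were other scalings, filters, DESeq2, a fit of all libraries, joined teeth and leaving out each library.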

Additional observations from a re-analysis of the deposited data

Results flagged for a closer look

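Of 81 groups of 5 libraries examined, 4 held a library far from the others, and 4.05 would be flagged by chance. The log2 level of Aqp3 minus the mean of the other 8 genes was -2.97 in E17 replicate 3, and the next lowest E17 value was -2.67. The mean of Krt8 and Krt18 minus that of the 4 adhesion genes was -0.446 in E17 replicate 1, with -0.689 as the next highest. The difference between Krt5 and Krt14 was 2.41 in E17 replicate 5, with 2.25 as the next highest. The mean log2 level of the adhesion genes was 10.92 in E18 replicate 2, with 10.64 as the next highest.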

How the results depend on the processing

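The fitted values of the 9 genes kept their direction in all 153 alternatives from E15 to E17 and in all 144 from E15 to E18. Each moved there by less than the pooled SD of the gene's log2 levels within the stages compared. From E15 to E17 the values also stayed past the threshold. From E17 to E18, 141 of 153 kept their direction and their side of the threshold. The exceptions were Krt14, which was lost in 10, with upper quartile scaling (adjusted p = 0.0503), with joined teeth of the shared E17 embryo (adjusted p = 0.0639) and without 1 of 8 libraries, and Perp and Krt18, which were gained without E18 replicate 3. Between sides no value was called, and the sign changed in 16 of 180 alternatives: Krt18 with upper quartile scaling (-0.001521), and when 1 library was left out, Aqp3 (-0.33 to 0.024), Cdh3 (-0.13 to 0.018), Epcam (-0.00519 to 0.16), Krt18 (-0.058 to 0.073) and Perp (-0.13 to 0.064). The number of changed genes from E15 to E17 was 2315, 1514 with all 15 libraries in one fit, 2749 in the HTSeq table and 1746 to 2881 with 1 library left out. From E17 to E18 it was 323, 635 with DESeq2, 212 with joined teeth, and 141 (without E17 replicate 3) to 713 (without E18 replicate 3). The mean of the 8 other genes increased by 1.29 from E15 to E18, and by 1.06 as a median over genes, and Aqp3 minus the 5 further epithelial genes increased from E17 to E18 by 1.04, and by 0.54 as a median over genes. Aqp3 minus the mean of the 8 other genes ranged from 1.78 to 2.25 at the first step and from 0.76 to 0.96 at the second with 1 library left out. Against the mean of the 5 further epithelial genes, the second step then ranged from 0.81 to 1.16. No paired analysis was possible because replicate numbers follow accession order and the stages share no embryo. The E15 level of Aqp3 rests on as few as 13 reads, which limits its fold change from that stage.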

Other observations

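Aquaporin genes beside Aqp3 were measured as well, and the cell types that express them were not determined here. From E15 to E17, 3 of 3 were called higher, Aqp9 with 3.88 ± 0.64, Aqp4 with 1.09 ± 0.21 and Aqp1 with 0.97 ± 0.17 on the log2 scale, beside 11.3% of all genes. The Aqp9 value rests on 5, 0, 0, 9 and 3 reads in the E15 replicates and on 52, 63, 35, 57 and 17 in the E17 replicates. From E17 to E18, 0 of 3 passed with edgeR, beside 1.91% of all genes called higher and 0.629% called lower. With DESeq2 0 passed, beside 445 genes called higher and 190 called lower among 12718. At an unadjusted p under 0.05 there were 0, beside 15.9% of all genes in either direction. A count of 0 among 3 genes is near these shares, and nothing is read from it. The values were 0.37 ± 0.42 for Aqp9, 0.05 ± 0.20 for Aqp4 and 0.32 ± 0.20 for Aqp1.

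In the list of 14 genes of dental epithelium drawn from the study's own categories, which is not independent of these samples, 8 were called higher from E15 to E17, beside 11.3% of all genes, and 5 from E17 to E18, beside 1.91%, and 0 were called lower by edgeR or DESeq2 or at an unadjusted p under 0.05. Shh, the signal of the enamel knot, rose by 4.57 ± 0.51 and then by 1.35 ± 0.16 (adjusted p = 0.00187), Sp6 by 4.17 ± 0.14 and 1.06 ± 0.16 (adjusted p = 0.0069), and Foxi3 by 2.06 ± 0.21 and 0.79 ± 0.10 (adjusted p = 0.00262, edgeR). The first value of Shh rests on 48, 1, 7, 45 and 0 reads in E15 replicates 1 to 5. The median of the list was 0.694 at the first step and 0.445 at the second. Without E18 replicate 3, or without E18 replicate 1, 7 of the 14 were called higher at the second step, beside 3.61% and 2.58% of all genes. With all libraries DESeq2 called 10 higher at the first step, beside 1621 of 12627 genes, and 7 at the second, beside 445 of 12718.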
